A study of Homo sapiens with 18 samples.

Results

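The genes described are 10 components of WNT signalling, chosen by symbol and found in all 3 deposited count tables, out of 58381 rows per table. Of these, 6 encode secreted antagonists (DKK1, DKK2, DKK3, SFRP1, SFRP2 and WIF1) and 4 are response genes or effectors (AXIN2, LEF1, TCF7 and NKD1). They were measured by stranded messenger RNA sequencing in TC-32, TC-71 and A673, established Ewing sarcoma lines. This tumour of bone or soft tissue is driven by a fusion of EWSR1 to the ETS-family gene FLI1. Each line had 3 libraries from cells given a control small interfering RNA (siNeg) and 3 from cells given one against FLI1 (siFLI1), both at 20 nM by lipid transfection, which makes 18 libraries in 6 groups of 3. The siRNA against FLI1 also reaches the fusion transcript and any unfused FLI1 RNA. The columns of TC-32 and TC-71 carry 48 h and those of A673 carry no time. A673 was grown in DMEM and the other lines in an RPMI medium. No label says whether replicates came from separate cultures, so the p-values measure the spread between these libraries, which may be technical.

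WNT ligands bind Frizzled receptors and the co-receptors LRP5 and LRP6, and this stops a complex of AXIN, APC and GSK3 from marking beta-catenin for destruction. Stabilised beta-catenin enters the nucleus and, with factors of the TCF/LEF family, activates target genes. Dickkopf proteins (DKK) act at LRP5 and LRP6, while secreted Frizzled-related proteins (SFRP) and WIF1 bind the ligands themselves. AXIN2 and NKD1 are target genes whose products feed back to dampen the pathway. In Ewing sarcoma, DKK2 is known as a gene that the fusion keeps high, and DKK1 as one that it holds down.

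Libraries held 24102487 to 33669271 counts for TC-32, 19685354 to 37234528 for TC-71 and 114564479 to 120993595 for A673. A count of 0 allows a level of up to 3 counts, and scaled to the library total (CPM) that is 0.0891 to 0.124 for TC-32, 0.0806 to 0.152 for TC-71 and 0.0248 to 0.0262 for A673, for counting error only. The siRNA left 48.9% of the FLI1 level in TC-32 (log2 fold change -1.03), 36.1% in TC-71 (-1.47) and 23.5% in A673 (-2.09). The Ewing sarcoma markers CD99, NKX2-2, NR0B1, STEAP1 and PRKCB were present in TC-32 and A673 and fell there in 5 of 5 cases. In TC-71, 4 of 4 tested fell. Beside these counts stand falls of 40.1%, 35% and 35.4% of all genes tested, with lines ordered TC-32, TC-71, A673. The fall of CD99 in TC-32 was small, with 89.5% of its siNeg level left (log2 fold change -0.16). CD99 has 2 rows in each table, with equal counts to each other in TC-32 and A673, and both were listed at 0 in all 6 TC-71 libraries, so this 0 is not read as absence of CD99. Among leukocyte markers, no group mean exceeded 0.0639 CPM for PTPRC, 0.0169 for CD3E, 0.603 for CD14 or 0.828 for ITGAM, and CD3E was at 0 in TC-32 and A673. Of these, ITGAM rose in TC-32, from 0.0280 to 0.828 CPM, and CD14 in A673, from 0.0944 to 0.256 CPM (adjusted p = 3.23e-07 and 0.0014 in edgeR). The siNeg mean of ITGAM in TC-32 lay under the floor, so only a rise could be called for it. Summed epithelial markers (EPCAM, KRT5, KRT14, CDH1 and CLDN4) were at 2.57–2.97 CPM with siNeg and 8.89–10.5 with siFLI1 in TC-32, 1.15–1.71 and 2.53–3.4 in TC-71, and 0.189–0.32 and 19.9–22.7 in A673. Of the epithelial markers tested, 2 of 3, 1 of 2 and 2 of 3 rose, beside 41.3%, 36.8% and 35.6% of all genes tested, and KRT5 fell in TC-32 (log2 fold change -0.97). Summed endothelial markers (PECAM1, CDH5, VWF and KDR) were at 32.7–33.8 CPM with siNeg and at most 4.02 with siFLI1 in TC-32, 0–0.111 and 0.377–0.688 in TC-71, and 5.57–6.34 and 28.5–31.8 in A673. KDR carried most of that sum in TC-32 (30.8 CPM with siNeg, 1.87 with siFLI1) and A673 (5.09 and 28.1), while CDH5 rose in TC-32 (log2 fold change 2.28) and PECAM1 fell in A673 (-1.10). The part of these markers in the results below was not tested. In bulk RNA, fewer cells that express a gene and less RNA per cell cannot be told apart.

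Promoter sequences were looked up to show the TCF/LEF-type and ETS-type letters near the start sites, and RefSeq entries (GRCh38.p14) were found for DKK1, SFRP2, WIF1, LEF1 and TCF7, the last with 2 starts. The letters CTTTGAT and CTTTGTT (TCF/LEF type) and GGAAGGAA (a repeated ETS core) were searched on both strands in the 300 bases around each start. CTTTGTT was found in 2 of the 6 windows, and the 250 bases before those starts are given below, with the match in capitals. The match lies 76 bases before the DKK1 start on its own strand (chr10:52314031-52314280, plus strand). It lies 50 bases before the second TCF7 start on the opposite strand, so it reads AACAAAG (chr5:134123368-134123617, plus strand, within the TCF7 gene).
DKK1: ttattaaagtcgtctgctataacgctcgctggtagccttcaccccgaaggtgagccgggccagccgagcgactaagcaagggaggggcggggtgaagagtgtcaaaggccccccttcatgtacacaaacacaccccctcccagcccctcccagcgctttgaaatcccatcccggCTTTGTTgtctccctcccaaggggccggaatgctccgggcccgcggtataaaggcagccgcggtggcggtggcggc
TCF7: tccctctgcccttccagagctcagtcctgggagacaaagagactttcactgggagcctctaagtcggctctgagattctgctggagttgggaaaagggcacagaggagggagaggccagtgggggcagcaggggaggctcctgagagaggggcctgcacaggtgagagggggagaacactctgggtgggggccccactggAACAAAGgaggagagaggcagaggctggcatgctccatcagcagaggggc
Over all 35116 promoters of the table, CTTTGTT was present in 5.2%, CTTTGAT in 2.62% and GGAAGGAA in 3.67%. Neither CTTTGAT nor GGAAGGAA was found in the 6 windows. DKK1 shares 10.2% of its own exon bases with PRKG1-AS1, a noncoding gene of the opposite strand.

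The first question was how each secreted antagonist responded to siFLI1 within each line. Of the 6 antagonists, siFLI1 raised DKK1, DKK3 and SFRP1 and lowered DKK2 in TC-32, lowered DKK2 and SFRP1 in TC-71, and raised DKK1, DKK3 and SFRP1 and lowered DKK2 and SFRP2 in A673. DKK2 was the one gene of the 10 that moved the same way in all 3 lines. DKK1 and DKK3 were at or near 0 counts in TC-71 under either siRNA. WIF1 was near 0 in every library.

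DKK1, an inhibitor that binds LRP5 and LRP6, is encoded by ENSG00000107984.9 on chromosome 10 from 52314281 to 52318042 (GENCODE release 44, GRCh38; all positions are from that annotation). In TC-32, the siNeg libraries held 13.4, 13 and 14.1 CPM and the siFLI1 libraries 98.5, 93.9 and 96.5. All siFLI1 libraries stood far above all siNeg libraries, a log2 fold change of 2.84 (SE 0.0615, adjusted p = 1.26e-22 in edgeR), or 7.14-fold. In A673, DKK1 was at 4.36, 4.29 and 4.17 CPM with siNeg and at 95.4, 91.6 and 95.7 with siFLI1. This was a 22.1-fold rise (log2 fold change 4.46, SE 0.0499, adjusted p = 2.96e-19 in edgeR). From unequal siNeg levels, the siFLI1 groups of the 2 lines thus reached 96.3 ± 2.30 and 94.2 ± 2.26 CPM (SD, n = 3 each), within each other's spread, although the tables were made separately. In TC-71, the raw counts were 0, 2 and 0 with siNeg and 0, 0 and 1 with siFLI1, under the floor of 3 counts in every library, so DKK1 was not tested there.

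DKK2, a relative that also binds LRP5 and LRP6 and can inhibit or promote signalling depending on context (ENSG00000155011.8, chromosome 4 from 106921802 to 107283806), fell in each line. It was at 25.8, 25.1 and 25.9 CPM with siNeg in TC-32 and at 14.9, 12.9 and 14.7 with siFLI1. In TC-71 it went from 100, 109 and 101 CPM to 41.9, 37.2 and 41.3. In A673 it went from 102, 107 and 106 CPM to 13.3, 12.5 and 12.3. The groups did not overlap in any line, and 55.2%, 38.9% and 12.1% of the siNeg level was left in TC-32, TC-71 and A673. The log2 fold changes were -0.86 (SE 0.0756, adjusted p = 1.88e-10 in edgeR), -1.36 (SE 0.0558, adjusted p = 3.79e-19 in edgeR) and -3.05 (SE 0.0471, adjusted p = 9.19e-18 in edgeR). The siNeg levels of TC-71 and A673, 103 ± 4.83 and 105 ± 2.61 CPM, lay within each other's spread, and that of TC-32, 25.6 ± 0.418 CPM, was lower. The tables were made separately, TC-71 with another counting tool, and these SDs do not measure differences between tables.

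DKK3, a divergent member of the family whose action on WNT signalling is less settled (ENSG00000050165.17, chromosome 11 from 11956207 to 12009769), rose in the lines in which DKK1 rose. In TC-32 it was at 15.7, 15.0 and 14.4 CPM with siNeg and at 42.3, 44.9 and 46.2 with siFLI1, a 2.96-fold rise (log2 fold change 1.57, SE 0.0679, adjusted p = 1.44e-16 in edgeR). In A673 it was at 4.41, 3.98 and 4.42 CPM with siNeg and at 74.5, 76.2 and 75.6 with siFLI1, a 17.7-fold rise (log2 fold change 4.14, SE 0.0530, adjusted p = 1.20e-18 in edgeR). The groups stood apart in both lines. In TC-71 the counts were 0, 0 and 0 with siNeg and 5, 0 and 2 with siFLI1, and the gene was not tested. DKK3 shares 47.5% of its exon bases with USP47 on the opposite strand. USP47 held 2116 to 4983 counts in the TC-71 libraries, in which DKK3 held at most 5, and its log2 fold changes were 0.15 in TC-32 and -0.11 in A673.

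SFRP1, a soluble protein with the ligand-binding domain of a Frizzled receptor (ENSG00000104332.11, chromosome 8 from 41261962 to 41309473), moved in opposite directions in different lines. In TC-32 it was at 2.18, 2.07 and 1.98 CPM with siNeg and at 100, 97.1 and 101 with siFLI1. This 47.8-fold rise (log2 fold change 5.58, SE 0.0819, adjusted p = 1.12e-25 in edgeR) was the highest fold among the 10 genes in any line. In TC-71 it fell from 7.39, 8.57 and 6.73 CPM to 1.92, 2.26 and 2.10, which left 28% of the siNeg level (log2 fold change -1.84, SE 0.142, adjusted p = 1.51e-12 in edgeR). In A673 it stayed scarce, with 12, 11 and 4 raw counts with siNeg and 24, 12 and 23 with siFLI1, or 0.0998, 0.0902 and 0.0337 CPM against 0.206, 0.103 and 0.201. That rise (log2 fold change 1.17, SE 0.436, adjusted p = 0.0237 in edgeR) missed the threshold with DESeq2 (adjusted p = 0.0608). It also missed it without siNeg replicate 3 (log2 fold change 0.83), siFLI1 replicate 1 (1.02) or siFLI1 replicate 3 (1.04), with adjusted p in edgeR of 0.112, 0.0693 and 0.0879.

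SFRP2, of the same family (ENSG00000145423.4, chromosome 4 from 153780591 to 153789083), fell in A673, from 1.27, 1.44 and 1.49 CPM to 0.283, 0.318 and 0.341 (log2 fold change -2.16, SE 0.162, adjusted p = 4.62e-09 in edgeR). In TC-32 the libraries overlapped, at 2.89, 2.56 and 3.83 CPM with siNeg and 2.76, 2.38 and 2.77 with siFLI1. The log2 fold change there was -0.23 (95% interval -0.61 to 0.15, adjusted p = 0.247 in edgeR), and it was -0.36 without siNeg replicate 2 and -0.06 without siNeg replicate 3. In TC-71 they overlapped as well, at 0.631, 0.811 and 0.937 CPM against 1.02, 1.15 and 0.754, with a log2 fold change of 0.27 (95% interval -0.34 to 0.88, adjusted p = 0.428 in edgeR). WIF1, which binds WNT ligands through a domain unlike that of Frizzled (ENSG00000156076.9, chromosome 12 from 65050626 to 65121305), passed the filter on low counts in no line. Its siNeg and siFLI1 means were 0.264 ± 0.112 and 0.255 ± 0.108 CPM in TC-71 (SD, n = 3), with libraries that overlapped, and at most 0.0842 CPM was seen in any library of TC-32 or A673.

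**Figure D1:**
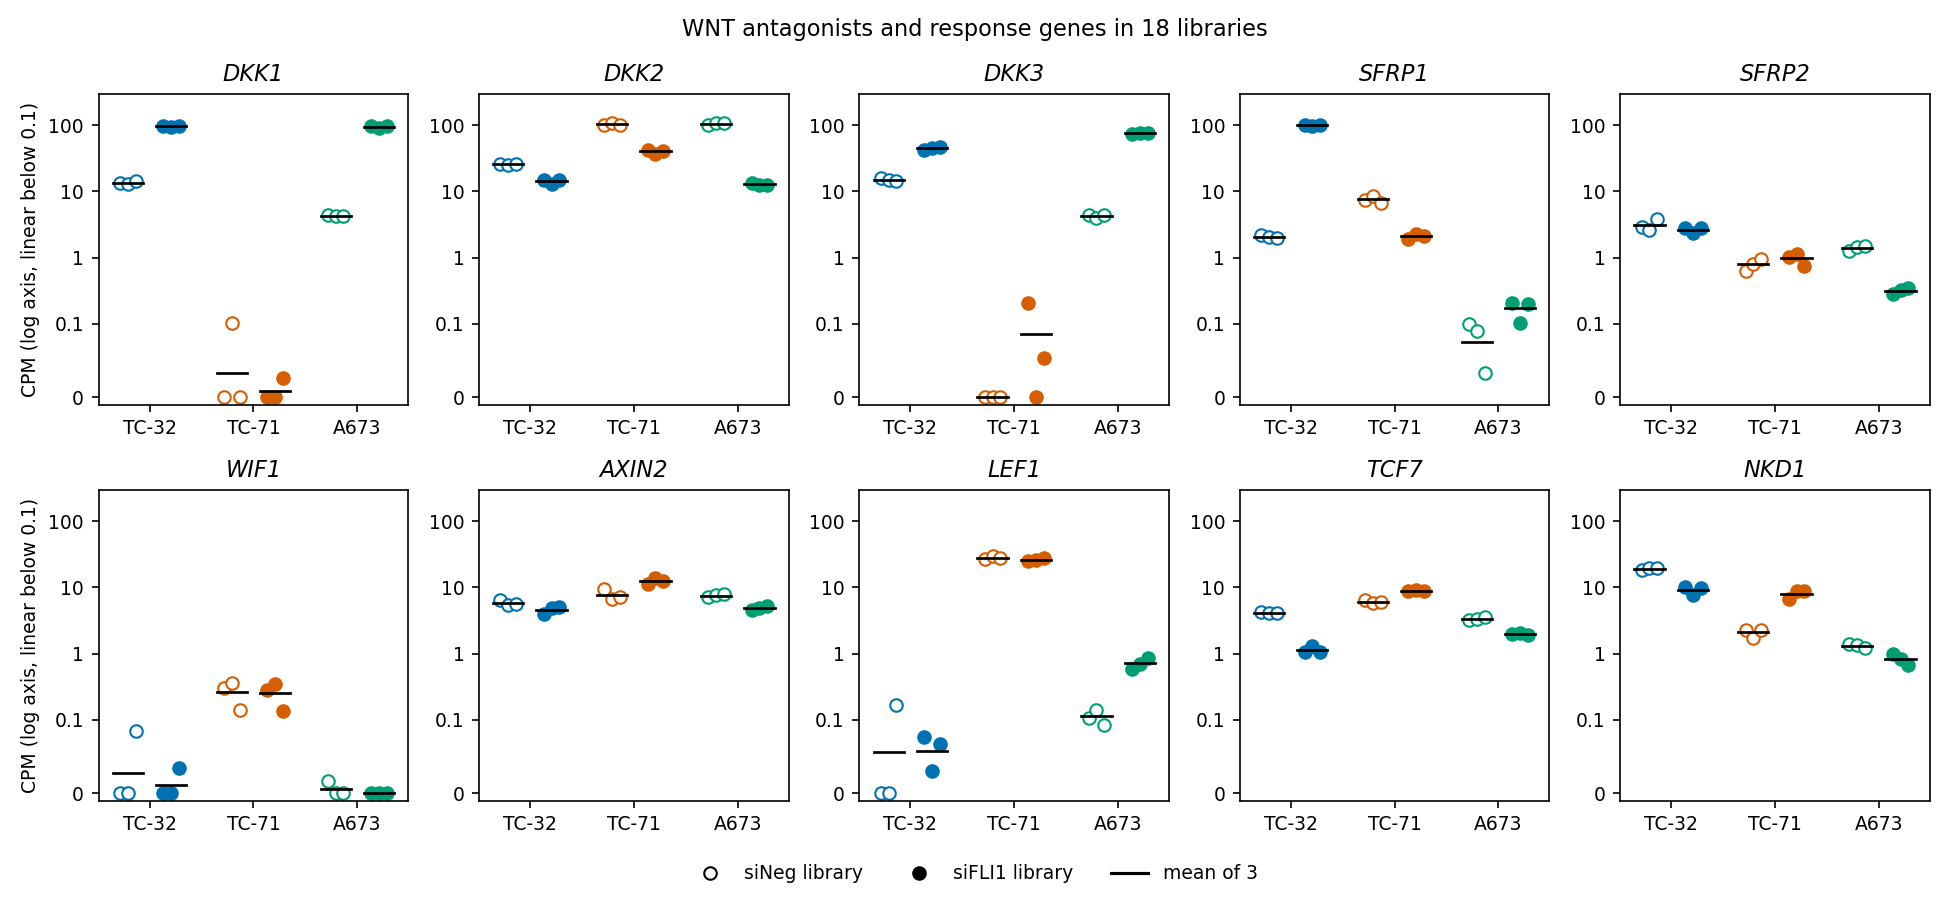
CPM of each gene (vertical axis, logarithmic above 0.1 and linear below) in each library of TC-32, TC-71 and A673, with open points for siNeg, filled points for siFLI1 and a bar at the mean of 3. DKK2 falls in all 3 lines, DKK1 and DKK3 are near 0 in TC-71, and NKD1, TCF7 and AXIN2 rise in TC-71 and fall in the other lines.

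The next question was how the response genes behaved. AXIN2, TCF7 and NKD1 fell in TC-32 and A673 and rose in TC-71. LEF1 was near 0 in TC-32, was high in TC-71 with no change past the threshold, and rose from a low level in A673.

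AXIN2, a scaffold of the destruction complex and a widely used readout of beta-catenin activity (ENSG00000168646.12, chromosome 17 from 65528563 to 65561648), changed by less than 2-fold everywhere. In TC-71 it was at 9.39, 6.69 and 7.22 CPM with siNeg and at 11.3, 13.6 and 12.6 with siFLI1, a log2 fold change of 0.68 (SE 0.111, adjusted p = 4.61e-06 in edgeR). In A673 it went from 7.15, 7.59 and 7.81 CPM to 4.55, 4.83 and 5.18 (log2 fold change -0.63, SE 0.0730, adjusted p = 9.56e-07 in edgeR). In TC-32 it went from 6.49, 5.35 and 5.6 CPM to 4.01, 4.81 and 5.04, groups that just missed overlapping (log2 fold change -0.32, SE 0.132, adjusted p = 0.0286 in edgeR). This fall in TC-32 missed the threshold when scaled to library size alone (log2 fold change -0.28, adjusted p = 0.0541 in edgeR) and with DESeq2 (-0.32, adjusted p = 0.0804). It also missed it without siNeg replicate 1 (-0.25, adjusted p = 0.126 in edgeR) or siFLI1 replicate 1 (-0.25, adjusted p = 0.101 in edgeR). AXIN2 shares 25.3% of its exon bases with CTD-2535L24.2 on its own strand, which held at most 11.94 counts in any library.

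NKD1, which binds Dishevelled and restrains signalling (ENSG00000140807.6, chromosome 16 from 50548396 to 50649249), showed the widest contrast of the response genes. In TC-71 it rose from 2.23, 1.72 and 2.29 CPM to 6.63, 8.68 and 8.86, or 3.84-fold (log2 fold change 1.94, SE 0.149, adjusted p = 1.27e-12 in edgeR). In TC-32 it fell from 18.2, 19.3 and 19.4 CPM to 10.0, 7.63 and 9.81 (log2 fold change -1.06, SE 0.0956, adjusted p = 2.83e-10 in edgeR). In A673 it fell from 1.37, 1.34 and 1.21 CPM to 0.977, 0.824 and 0.665 (log2 fold change -0.67, SE 0.152, adjusted p = 0.000971 in edgeR). The siNeg level was thus highest in TC-32, at 19.0 ± 0.692 CPM, beside 2.08 ± 0.311 for TC-71 and 1.3 ± 0.0875 for A673. With siFLI1, TC-32 (9.15 ± 1.32 CPM) and TC-71 (8.06 ± 1.24 CPM) lay within each other's spread, in tables made separately.

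TCF7, a TCF/LEF-family DNA-binding partner of beta-catenin (ENSG00000081059.19, chromosome 5 from 134114681 to 134151865), has the printed upstream window with CTTTGTT at its second start. It fell in TC-32 from 4.19, 4.07 and 4.12 CPM to 1.07, 1.31 and 1.05, which left 27.9% (log2 fold change -1.84, SE 0.190, adjusted p = 3.24e-09 in edgeR). In A673 it fell from 3.25, 3.29 and 3.50 CPM to 1.98, 2.04 and 1.93 (log2 fold change -0.75, SE 0.0904, adjusted p = 1.46e-06 in edgeR). In TC-71 it rose from 6.5, 5.83 and 5.90 CPM to 8.68, 9.10 and 8.81 (log2 fold change 0.54, SE 0.106, adjusted p = 4.21e-05 in edgeR). No siFLI1 library overlapped a siNeg library in any of the 3 lines.

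LEF1, the other family member followed (ENSG00000138795.9, chromosome 4 from 108047545 to 108168956), was at 26.8, 30.0 and 27.6 CPM with siNeg in TC-71 and at 24.6, 26.1 and 27.9 with siFLI1. Those groups overlapped, and the log2 fold change was -0.10 (95% interval -0.24 to 0.05, adjusted p = 0.226 in edgeR). In A673 LEF1 rose from 0.108, 0.139 and 0.0928 CPM to 0.591, 0.687 and 0.857, or 6.22-fold (log2 fold change 2.64, SE 0.260, adjusted p = 1.35e-07 in edgeR). Its siFLI1 mean in A673, 0.712 ± 0.135 CPM, remained far under the level in TC-71. In TC-32 it held 0, 0 and 4 raw counts with siNeg and 2, 1 and 2 with siFLI1, and was not tested.

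**Figure D2:**
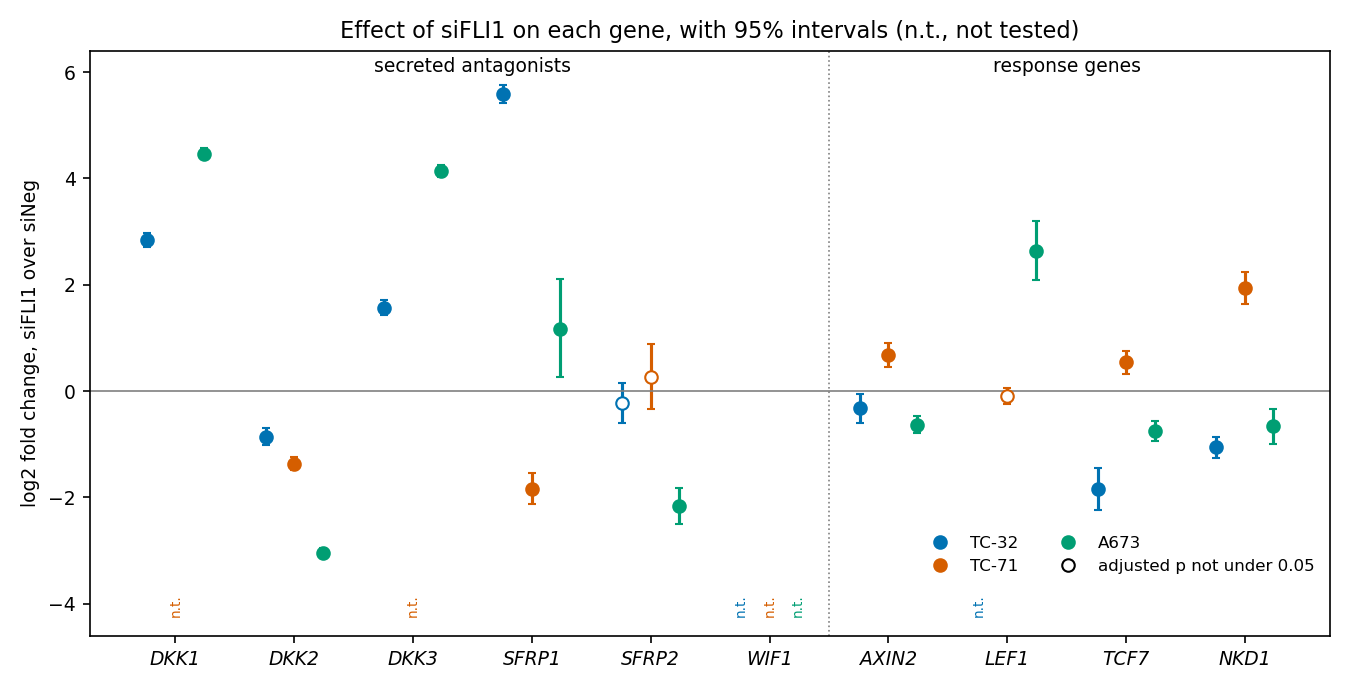
Log2 fold change of siFLI1 over siNeg with its 95% interval (vertical axis) for each gene and line, from edgeR; open points missed an adjusted p of 0.05 and n.t. marks genes not tested for low counts. SFRP1 ranges from -1.84 in TC-71 to 5.58 in TC-32, and the TC-71 points of AXIN2, TCF7 and NKD1 lie above 0 while those of the other lines lie below.

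Counts over the 10 genes have to be read against how many of all genes changed. In TC-32, 8 of the 10 genes passed the filter and 7 of these were called, 3 higher and 4 lower, where 81.4% of all 16227 genes tested were called (41.3% higher and 40.1% lower). In TC-71, 7 passed and 5 were called, 3 higher and 2 lower, against 71.9% of all 17085 genes tested (36.8% higher and 35% lower). In A673, 9 passed and 9 were called, 4 higher and 5 lower, against 71% of all 18444 genes tested (35.6% higher and 35.4% lower). The siRNA groups did not overlap for 7, 5 and 9 of the genes tested, in the order TC-32, TC-71, A673, where the shares over all genes were 82.5%, 73.8% and 73.6%. In TC-32 and TC-71 the share of the genes called was thus near that of all genes, and in A673 it was above it. The members' median absolute log2 fold change was 1.31, 0.675 and 2.16 in the same order, beside 0.726, 0.469 and 0.420 over all genes tested.

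Directions were set side by side for each pair of lines. TC-32 and A673 shared 7 called members, and 0 of these had opposite directions, where 23.9% of all genes called in both did. TC-32 and TC-71 shared 5, and SFRP1, AXIN2, TCF7 and NKD1 were opposite, while 14.2% of all genes called in both lines were. A673 and TC-71 shared 5 as well, with the same 4 opposite, beside 19.8% of all genes. Of the calls used here, AXIN2 in TC-32 and SFRP1 in A673 were less firm. Each was lost in 4 of 14 fits with another setting or a library left out, and SFRP1 reached at most 0.206 CPM in A673. The 10 genes were chosen with earlier results of these data known, so these counts describe them and carry no test.

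An interaction contrast over all 18 libraries asked, gene by gene, whether 2 lines responded to siFLI1 unequally. Of the genes tested in both lines of a pair, 6 of 8 differed between TC-32 and A673, 5 of 6 between TC-32 and TC-71, and 7 of 7 between A673 and TC-71. Over the members that passed the filter of the 18-library fit, the counts were 6 of 9, 6 of 9 and 8 of 9. These are the ones to set beside the 62.1%, 53.6% and 51.6% of all 19610 genes of that fit. They include DKK1 as differing in both pairs with TC-71, a line in which it was too scarce to be tested alone. Its differences, 3.89 for TC-32 (SE 1.63) and 5.49 for A673 (SE 1.72), thus rest on near-absent TC-71 counts. Between TC-32 and TC-71 the line and the counting tool changed together, and A673 differed from TC-32 in medium and depth and from TC-71 in medium, depth and counting tool. The time of A673 is not labelled, where the other lines carry 48 h, so it may differ as well. The parts of line and of these differences cannot be told apart.

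The largest difference was that of SFRP1, whose log2 fold change was 7.41 higher in TC-32 than in TC-71 (SE 0.170, adjusted p = 1.50e-27 in edgeR) and 4.45 higher in TC-32 than in A673 (SE 0.449, adjusted p = 1.42e-10 in edgeR). NKD1 differed by -3.01 between TC-32 and TC-71 (SE 0.193, adjusted p = 2.56e-15 in edgeR) and by -2.64 between A673 and TC-71 (SE 0.216, adjusted p = 1.57e-12 in edgeR). TCF7 differed by -2.39 and -1.33 in the same pairs, and AXIN2 by -1.0 and -1.34, each past the threshold. So for each of the 3 genes the rise in TC-71 and the fall elsewhere differed beyond the spread of the libraries. Among the antagonists, the rises of DKK1 and DKK3 in TC-32 were smaller than those in A673, with differences of -1.60 (SE 0.0899, adjusted p = 3.74e-17 in edgeR) and -2.55 (SE 0.0998, adjusted p = 1.25e-20 in edgeR). The fall of DKK2 in TC-32 was smaller than that in A673 by 2.21 (SE 0.0866, adjusted p = 2.01e-21 in edgeR) and smaller than that in TC-71 by 0.50 (SE 0.0877, adjusted p = 1.04e-05 in edgeR). The depth of the FLI1 knockdown differed in the same order, with FLI1 differences of 1.08 and 0.43 for these pairs, and its part was not tested.

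Between TC-32 and A673, 2 response genes gave no difference past the threshold. NKD1 differed by -0.37 (95% interval -0.75 to 0.01, adjusted p = 0.0880 in edgeR). It passed in a fit of only the 12 libraries of these lines (-0.44, adjusted p = 0.0349 in edgeR) and without A673 siFLI1 replicate 3 (-0.51, adjusted p = 0.0247 in edgeR). AXIN2 differed by 0.34 (95% interval 0.01 to 0.66, adjusted p = 0.0661 in edgeR). It passed with RLE factors (0.36, adjusted p = 0.0489 in edgeR), library size alone (0.46, 0.0117), a mean of at least 10 counts (0.37, 0.0422) and without TC-32 siNeg replicate 1 (0.43, 0.0335) or siFLI1 replicate 1 (0.42, 0.0278). SFRP2 differed by -0.50 between TC-32 and TC-71 (95% interval -1.15 to 0.15, adjusted p = 0.194 in edgeR).

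**Figure D3:**
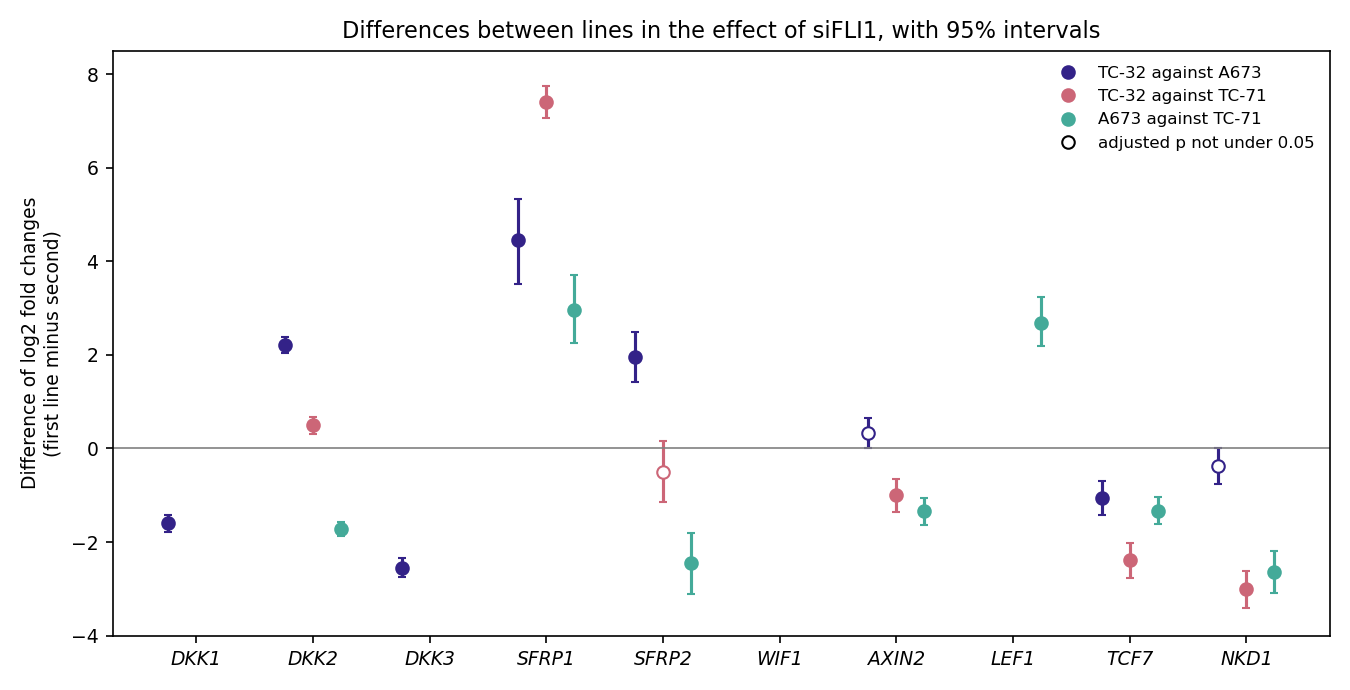
Difference between lines in the log2 fold change of siFLI1 over siNeg, first line minus second, with 95% intervals (vertical axis), for genes tested in both lines of a pair; open points missed an adjusted p of 0.05. The TC-32 and A673 contrasts of AXIN2 and NKD1 (0.34 and -0.37) lie close to 0, while their contrasts with TC-71 lie between -3.01 and -1.0.

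Which antagonist transcript predominated was asked within each group on a length scale, as CPM per kilobase of merged exons, which allows levels of different genes to be compared. With siNeg, DKK2 made up 91.8% ± 0.550 of the summed level of the 6 antagonists in TC-71 and 89.0% ± 0.238 in A673 (SD, n = 3). In TC-32, DKK1 (39.9% ± 0.186) and DKK2 (38.8% ± 1.07) were close to level. With siFLI1, DKK1 made up 59.7% ± 0.465 and SFRP1 28.9% ± 0.242 in TC-32. In A673, DKK1 made up 81.8% ± 0.388 and DKK3 12.2% ± 0.361, and the share of DKK2 was 5.65% ± 0.224. In TC-71 the share of DKK2 was 89.7% ± 1.91, so the make-up stayed DKK2 by far.

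The summed level of the 6 antagonists moved with these shares. It was 15.2 ± 0.644 CPM per kb with siNeg and 72.7 ± 1.70 with siFLI1 in TC-32, and 27.2 ± 0.614 against 51.9 ± 1.02 in A673. In TC-71 it was 26.0 ± 1.39 with siNeg and 10.3 ± 0.478 with siFLI1. The groups were thus far apart relative to their SD, upward in TC-32 and A673 and downward in TC-71. The merged exons of DKK3 span 11958 bases and its canonical transcript 2525, so its share rests on the length taken. Per kb of canonical transcript, DKK3 made up 34.8% ± 0.764 in A673 and 17.9% ± 0.875 in TC-32 with siFLI1, and DKK1 was still first in both, at 60.9% and 54.2%. With siNeg in TC-32, DKK3 was at 26.5% ± 1.5 per kb of canonical transcript and at 8.26% ± 0.599 per kb of merged exons. The summed level per kb of canonical transcript was 22.5 ± 0.642 and 98.4 ± 1.89 CPM per kb in TC-32 (siNeg and siFLI1), 30.5 ± 1.62 and 12.1 ± 0.612 in TC-71, and 33.5 ± 0.672 and 85.8 ± 1.07 in A673. The directions were those found with merged exons, with a higher siFLI1 level in A673.

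**Figure D4:**
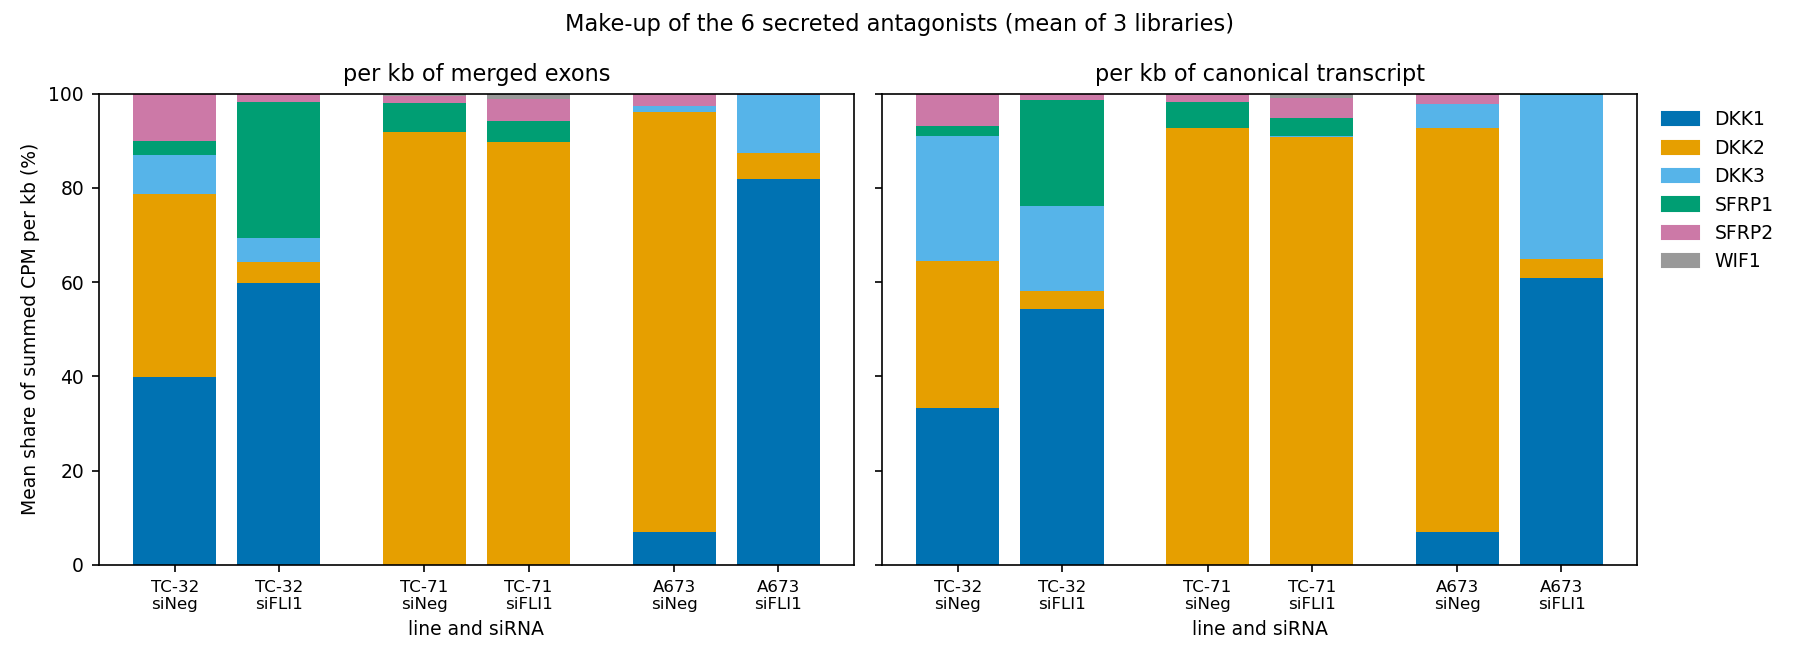
Mean share of each secreted antagonist in the summed CPM per kb of all 6 (vertical axis, percent; mean of 3 libraries) by line and siRNA, per kb of merged exons on the left and of canonical transcript on the right. DKK2 fills most of the TC-71 bars under both siRNAs (91.8% and 89.7% per kb of merged exons) and of the A673 siNeg bar (89.0%), and DKK1 is first in TC-32 and A673 with siFLI1.

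Among the response genes on the same scale (CPM per kb of merged exons), LEF1 stood first in TC-71 with siNeg, at 5.25 ± 0.306, ahead of AXIN2 at 1.49 ± 0.276, TCF7 at 0.602 ± 0.0364 and NKD1 at 0.120 ± 0.0179. In TC-32 with siNeg, AXIN2 (1.12 ± 0.115) and NKD1 (1.09 ± 0.0398) lay within each other's spread, above TCF7 (0.409 ± 0.00578). In A673 with siNeg, AXIN2 led at 1.45 ± 0.0649, followed by TCF7 at 0.332 ± 0.0133, NKD1 at 0.0752 ± 0.00504 and LEF1 at 0.0212 ± 0.00443. With siFLI1 in A673, AXIN2 was at 0.934 ± 0.0607, TCF7 at 0.196 ± 0.00506, LEF1 at 0.133 ± 0.0251 and NKD1 at 0.0474 ± 0.00900. LEF1 thus moved past NKD1 there. Per kb of canonical transcript, TCF7 in TC-32 with siNeg stood instead at 1.26 ± 0.0177, above NKD1 at 1.11 ± 0.0406. On that scale TCF7 in TC-71 with siNeg was at 1.85 ± 0.112, within the spread of AXIN2 at 1.82 ± 0.336.

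Of 14232 genes tested in all 3 lines, the 5 whose log2 CPM was most like that of AXIN2 over the 18 libraries were FLOT1 (Pearson r 0.948), HDAC6 (0.936), SOS1 (0.927), HIST1H2BC (0.922) and PDK3 (0.921). The libraries share line, siRNA and counting tool in blocks, so these values are a description. With the mean of each line removed, r with AXIN2 over the 18 libraries was 0.806 for NKD1, 0.688 for TCF7, 0.632 for SFRP2, 0.307 for DKK2 and -0.497 for SFRP1.

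The rest of the pathway was followed in 7 lists with 88 genes by role. In TC-32, 72 were tested, of which 43 rose and 20 fell, with a median log2 fold change of 0.787 beside 0.0222 over all genes tested. In TC-71, 45 of 67 rose and 11 fell (median 0.373, beside 0.0181). In A673, 36 of 66 rose and 22 fell (median 0.207, beside -0.00655), and 30 rose and 27 fell when A673 was scaled to library size alone, which moved the median of all its genes to -0.11. The shares called were 87.5%, 83.6% and 87.9%, beside 81.4%, 71.9% and 71% of all genes tested. For the counts of each list below, the shares of all genes tested that rose were 41.3%, 36.8% and 35.6%, and those that fell 40.1%, 35% and 35.4% (TC-32, TC-71, A673). The lists were chosen with earlier results known, and neither counts nor medians were tested as sets. The counts include genes that passed the filter only through the libraries of 1 siRNA, which fixed their direction. Among them are RSPO1, SFRP4 and SOST in TC-32, which had no counts with siNeg.

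Upstream of the antagonists, ligands and the proteins that release them rose in 10 of 14 tested cases for TC-32, 8 of 10 for TC-71 and 9 of 11 for A673, and 1, 2 and 2 fell. Some of the ligands passed the filter only through their siFLI1 libraries and could be called only as rises. With siNeg, WNT4, WNT6, WNT7B and WNT10A held 0 to 3 counts per library in TC-32. WNT8A in TC-71 and WNT7B in A673 held none. With siNeg, WNT5B, WNT6 and WNT9A held 0 to 9 counts per library in TC-71. In TC-32, WNT9A and WNT11 held 4 to 15. These genes too would not have passed the filter on their siNeg libraries alone. WNT2B, a ligand, rose from 1.23 ± 0.371 to 26.7 ± 0.721 CPM in TC-32 (SD, n = 3). It also rose in TC-71, from 1.93 ± 0.461 to 4.13 ± 0.596 CPM, and in A673, from 0.537 ± 0.112 to 18 ± 0.698. WNT5B, a ligand usually linked to signalling without beta-catenin, rose by 1.07, 5.22 and 6.25 on the log2 scale. Its TC-71 value starts from 5, 0 and 7 siNeg counts, so only a rise could be called there. WNT10B, a ligand of the beta-catenin branch, fell in TC-71 from 15.1 ± 1.31 to 4.45 ± 0.444 CPM and rose in TC-32 (log2 fold change 0.82) and A673 (1.21).

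Among receptors, 8 of 14 rose and 4 fell in TC-32, 9 of 13 rose and 2 fell in TC-71, and 8 of 14 rose and 5 fell in A673. ROR1, a receptor for WNT5-type ligands, rose with log2 fold changes of 2.06, 2.49 and 1.52, in the order TC-32, TC-71, A673 used from here on. FZD6, a Frizzled receptor, rose by 1.15, 0.94 and 1.67. FZD4 rose in TC-32 (1.59) and TC-71 (0.87) and fell in A673, with a log2 fold change of -1.06. R-spondins amplify the signal by removing the ligases that turn over Frizzled, and LGR receptors bind them. In that list 5 of 7, 4 of 7 and 3 of 5 tested genes rose, and 2, 1 and 1 fell. In TC-32, RSPO1, RSPO2 and RSPO3 held 0 to 2 counts in each siNeg library, so their fitted fold changes and the list's median rest on the prior count and are not given. These genes passed the filter through their siFLI1 libraries, so they could be called only as rises. The same holds for RSPO3 in TC-71, with 4, 2 and 6 siNeg counts. LGR4 rose in each line (log2 fold changes 1.29, 2.53 and 1.71). LGR5, itself a beta-catenin target, rose from 0.950 ± 0.243 to 29.9 ± 2.60 CPM in TC-71 and fell from 75.5 ± 2.02 to 41.7 ± 2.21 in TC-32, the directions that AXIN2, TCF7 and NKD1 had in those lines; in A673 it rose, with a log2 fold change of 0.57.

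Other secreted or surface antagonists split, with 4 higher and 3 lower of 7 in TC-32, 3 and 3 of 8 in TC-71, and 1 and 4 of 6 in A673. APCDD1, a membrane protein that binds WNT and LRP5, fell in each line, most in A673, from 518 ± 12.9 to 70.0 ± 4.68 CPM (log2 fold change -2.89); it was -0.68 in TC-32 and -1.53 in TC-71. FRZB, an SFRP relative, rose in TC-71 (0.85) and fell in TC-32 (-0.50) and A673 (-0.91). In the destruction complex and Dishevelled list, 3 of 12 rose and 5 fell in TC-32, 8 rose and 1 fell in TC-71, and 6 rose and 4 fell in A673, with small changes. BTRC, the ubiquitin ligase subunit that takes beta-catenin, rose by 0.86, 0.37 and 0.42 on the log2 scale, and DVL2 fell, with log2 fold changes of -0.35, -0.20 and -0.39. DVL1 fell in TC-32 (-0.59) and rose in A673 (0.40).

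Among nuclear partners of beta-catenin, 7 of 11 rose and 4 fell in TC-32, 9 rose and 1 fell in TC-71, and 6 rose and 3 fell in A673. In all 3 lines, rises were called for TCF7L1 and TCF7L2, both DNA-binding partners of beta-catenin, the coactivator BCL9L, the corepressors TLE1 and TLE4, and CTNNBIP1. PYGO2 of the same list fell in all 3 lines (log2 fold changes -0.33, -0.20 and -0.63). The share of all genes called the same way in all 3 lines was not worked out. These genes are named after their values were seen, TLE4 and CTNNBIP1 also by the rule for named genes. TCF7L2 rose by 2.11, 1.58 and 0.62 on the log2 scale, TLE4 by 1.61, 1.95 and 0.97, and CTNNBIP1, which blocks beta-catenin from binding TCF, by 0.75, 1.52 and 0.68. TLE2 fell in TC-32 (-0.88) and A673 (-1.70) and rose in TC-71 (0.23), and it was named for its opposite calls in A673 and TC-71. Among other genes often used as WNT readouts, 6 of 7 rose and 1 fell in TC-32, 4 of 6 rose and 1 fell in TC-71, and 3 of 7 rose and 3 fell in A673. SNAI2, a mesenchymal transcription factor, rose by 5.07, 2.96 and 2.64 on the log2 scale. CCND1, a G1 cyclin that many pathways feed, fell from 1212 ± 36.5 to 60.5 ± 2.93 CPM in TC-32, and the levels were 1437 ± 23.9 and 274 ± 22.2 CPM in TC-71 and 1618 ± 27.6 and 474 ± 4.05 in A673. NKD2, the paralog of NKD1, rose in TC-32 (0.94) and fell in A673 (-2.39). The list's genes therefore did not move in one direction within any line.

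**Figure D5:**
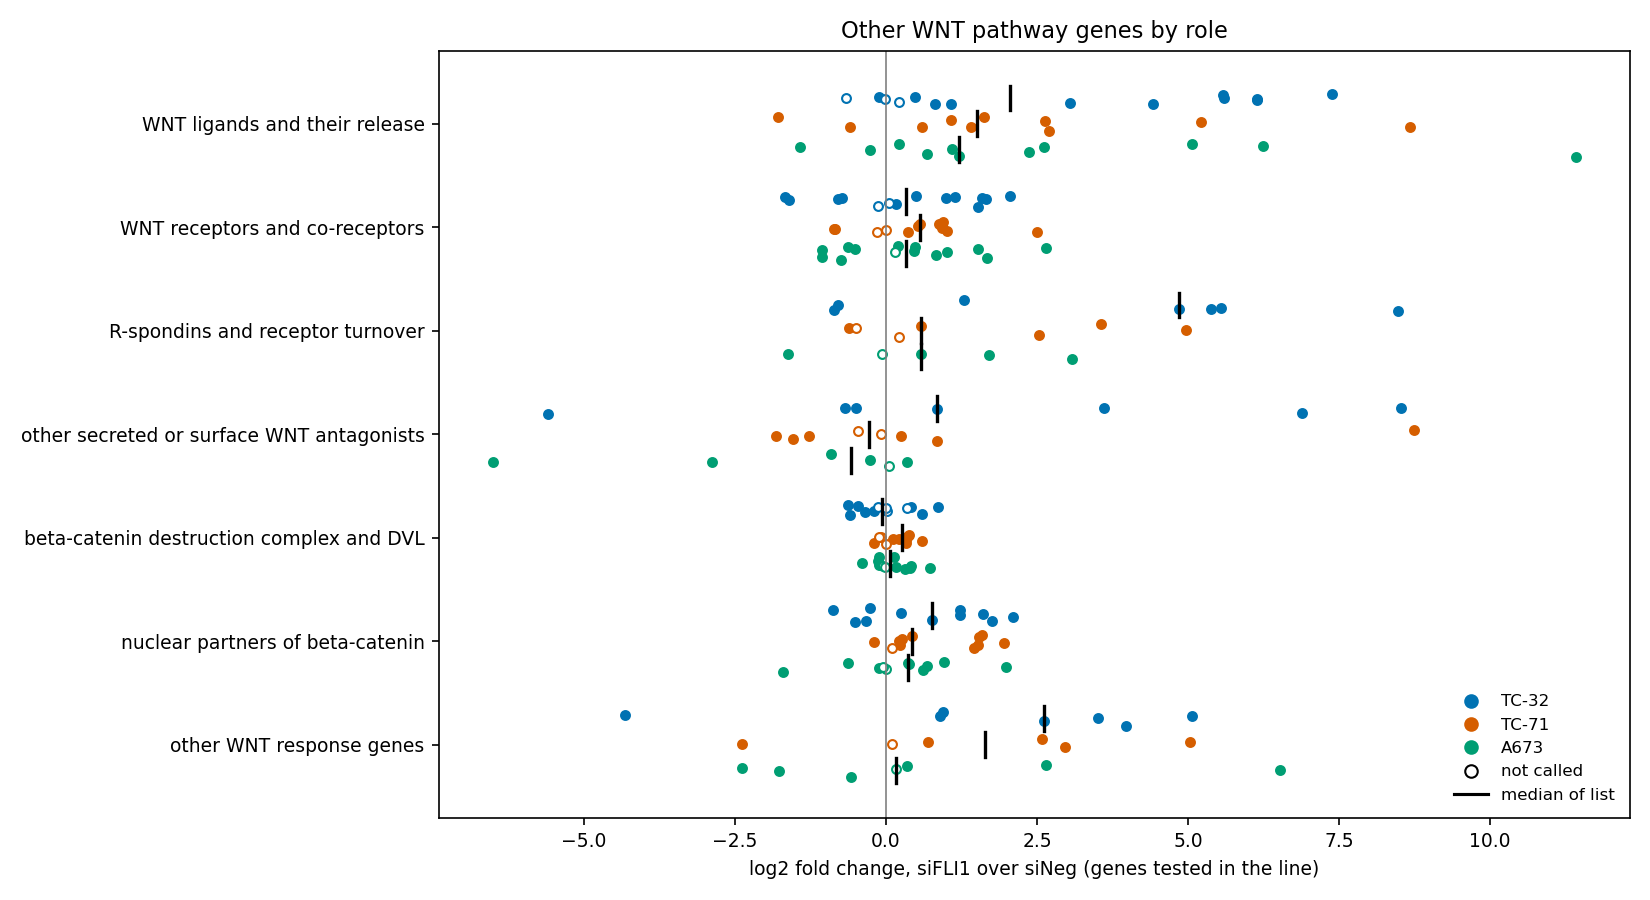
Log2 fold change of siFLI1 over siNeg (horizontal axis) for the genes tested in each of 7 WNT pathway lists and each line; open points were not called and the bar is the list median. Ligands have medians of 2.06 (TC-32), 1.51 (TC-71) and 1.21 (A673), and the destruction complex list stays near 0. The ligand medians include genes that passed the filter only through siFLI1 libraries and could be called only as rises. These medians are therefore not read as a shift of the list. Points of genes with few or no counts under 1 siRNA, and the R-spondin list's TC-32 bar, rest on the prior count of the fit.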

How the data were processed

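The deposited values are expected counts for TC-32 and A673, from RSEM by the table names, and deposited counts for TC-71, from Subread by its name. Neither is scaled to depth. Per the submitters' processing notes, cutadapt 4.4, STAR 2.7.3, featureCounts, Subread 2.0.3 and limma 3.38.3 were used with GRCh38/hg38; roles, annotation release and strand setting are not given in the sources used here. The line of the TC-32 and TC-71 columns rests on the table name.

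Expected counts were rounded. Each line was fitted alone in edgeR 4.0.16 (R 4.3.3): filterByExpr by group, TMM factors, siFLI1 against siNeg by the quasi-likelihood F-test, Benjamini-Hochberg adjustment over all genes tested, calls at an adjusted p under 0.05. Differences between lines were interaction contrasts in 1 model of 18 libraries and 6 groups. CPM are TMM-scaled. Log2 fold changes are shrunken with a prior count of 0.125, and errors come from unshrunken coefficients. The code was tested on simulated data. Replicates had a Pearson r of at least 0.9954 across genes and a chi-square per degree of freedom of at least 2.45, so none was a copy.

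Settings tried were DESeq2 1.42.0, limma-voom (limma 3.58.1), scaling by RLE or by library size alone, no filter on low counts or a mean minimum of 10, unrounded counts, the replicate number as a block, only the 12 libraries compared, and leaving out each library. Canonical transcript lengths were added after seeing the data. Positions and lengths are from GENCODE release 44.

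The 10 genes, the lists and the tests were chosen with earlier results of these data known. Named genes are the 10, FLI1 and, per list, up to 2 called the same way in all 3 lines without overlap and with mean log2 CPM of at least 1, ranked by their smallest change, and 1 with the largest opposite calls; for AXIN2, the 5 most correlated genes (0.5 CPM added). A leukocyte marker of the lists is not reported here.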

Additional observations from a re-analysis of the deposited data

Results flagged for a closer look

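The effect of siFLI1 differed between lines in 18 of the 21 contrasts of these genes tested in both lines (interaction test in edgeR, adjusted p under 0.05), each given as the difference of log2 fold changes, first line minus second. Against A673, TC-32 differed by -1.60 for DKK1, 2.21 for DKK2, -2.55 for DKK3, 4.45 for SFRP1, 1.95 for SFRP2 and -1.06 for TCF7. Against TC-71, TC-32 differed by 0.50 for DKK2, 7.41 for SFRP1, -1.0 for AXIN2, -2.39 for TCF7 and -3.01 for NKD1. Between A673 and TC-71 the differences were -1.72 for DKK2, 2.96 for SFRP1, -2.45 for SFRP2, -1.34 for AXIN2, 2.69 for LEF1, -1.33 for TCF7 and -2.64 for NKD1. Unequal responses were also common over all 19610 genes of the 18-library fit. Their shares were 51.6% for A673 with TC-71, 53.6% for TC-71 with TC-32 and 62.1% for A673 with TC-32. Of the 9 members in that fit, 8, 6 and 6 differed, in the same order. Only these member counts, and not the 18 of 21, can be set beside those shares. SFRP1, AXIN2, TCF7 and NKD1 were called in opposite directions in TC-71 and in both other lines. The calls of AXIN2 in TC-32 and SFRP1 in A673 were each lost in 4 of 14 fits with another setting or a library left out.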

How the results depend on the processing

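Over the alternatives, the number of the 10 genes called ran from 6 to 7 in TC-32 and from 8 to 9 in A673 and was 5 in each for TC-71. Of the 10 genes' single values, 321 within lines kept their direction and side of the threshold, 8 (AXIN2 in TC-32 and SFRP1 in A673) lost the call and 0 reversed. Of the differences between lines, 434 kept both and 7 (AXIN2 and NKD1 between TC-32 and A673) gained the call. The cause was not tested. Leaving out a library gave -0.39 to -0.25 for AXIN2 in TC-32 and 0.83 to 1.44 for SFRP1 in A673. The uncalled SFRP2 values ran from -0.36 to -0.06 in TC-32 and from 0.11 to 0.45 in TC-71. DVL1 in TC-71, at -0.00073 and uncalled, ran from -0.052 to 0.069 when leaving out a library, with 0.02 without siNeg replicate 3. Replicate numbers did not pair the libraries, with correlations of same-numbered deviations from -0.205 to 0.0531 and 2 of 9 numbered pairs closest to their own number; with the replicate number as a block, 7, 5 and 9 of the 10 genes were called (TC-32, TC-71, A673), with no call of these genes changed, and 51 of the A673 pathway genes against 58. Low counts left no test for WIF1 in any line, for DKK1 and DKK3 in TC-71 and for LEF1 in TC-32, and a wide interval for SFRP1 in A673. A single siRNA against FLI1 was used throughout.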

Other observations

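Some other secreted antagonists, singled out after their values were seen, changed further than most of the 10 genes. CER1, which encodes Cerberus, an inhibitor of WNT, BMP and Nodal ligands, fell from 10.0 ± 0.521 to 0.210 ± 0.160 CPM in TC-32 and from 24.1 ± 0.373 to 0.265 ± 0.0693 in A673 (SD, n = 3; log2 fold changes -5.60 and -6.50, adjusted p = 9.91e-17 and 9.82e-18 in edgeR). In TC-71 its siRNA groups overlapped (1.38 ± 0.318 and 1.04 ± 0.281 CPM, log2 fold change -0.47, adjusted p = 0.119 in edgeR). SFRP4, a relative of SFRP1, had no counts in the 3 siNeg libraries of TC-32 and 48, 52 and 51 with siFLI1, a log2 rise of at least 3.83 against 3 counts per library. In TC-71 it had 1, 0 and 0 counts with siNeg and 166, 196 and 313 with siFLI1 (adjusted p = 5.73e-19 in edgeR), so no siFLI1 library was near a siNeg library. In A673 it held at most 6 counts. RSPO3, a secreted amplifier of WNT signalling, held 0, 2 and 2 counts with siNeg in TC-32 and 64, 84 and 69 with siFLI1 (adjusted p = 2.03e-11 in edgeR), and its log2 fold changes were 3.56 in TC-71 and 3.08 in A673. In TC-71 it held 4, 2 and 6 counts with siNeg. Both SFRP4 and RSPO3 passed the filter in TC-32 and TC-71 only through their siFLI1 libraries. Only a rise could be called for them there, so these p-values do not bear on direction.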
